A study of Mus musculus with 18 samples.

Results

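The genes of activator protein 1 (AP-1) were followed in mouse embryonic fibroblasts (MEFs), primary cells grown from embryos without head and viscera. The group was defined by name and holds 10 of the 55401 genes counted: Fos, Fosb, Fosl1 and Fosl2 of the Fos family, Jun, Junb and Jund of the Jun family, and the related genes Atf3, Maff and Batf3. Poly(A) RNA was counted in 18 libraries, in 6 groups of 3 libraries. In the S6K1 series, MEFs of wild-type (WT) genotype received a retrovirus that was either empty (EV) or carried oncogenic HRAS (RAS), and MEFs without S6K1 (KO) received RAS. In the S6K1/S6K2 series, WT MEFs likewise received EV or RAS, and MEFs without S6K1 and S6K2 (DKO) received RAS. Rps6kb1 and Rps6kb2 are the genes of these kinases, which phosphorylate ribosomal protein S6. All RAS and EV cells were selected for the vector, and each replicate is a line from a separate embryo. KO embryos were littermates of their WT controls, whereas DKO embryos came from parents lacking S6K2 and heterozygous for S6K1, and their WT controls from WT mothers of earlier breeding, so that kinase loss and litter differ together there. As KO and DKO cells with EV were not analysed here, the effect of RAS was measured in WT cells only.

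AP-1 is a dimer of basic leucine zipper proteins, most often a Fos protein with a Jun protein. Jun proteins pair with each other or with a Fos protein, whereas Fos proteins need a Jun partner to bind DNA. In fibroblasts Fos and Jun are immediate early genes, switched on within minutes of a growth signal, and the RAS-ERK cascade acts on AP-1 by new transcription and by phosphorylation of the proteins. Fos and Fosb respond briefly, Fosl1 (encoding Fra-1) and Fosl2 (Fra-2) respond later and for longer, and Fosl1 is known for high levels in cells with oncogenic RAS. RNA counts carry no information on phosphorylation or protein level.

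Promoter windows of 250 bases before the annotated start were taken from RefSeq (GRCm38.p6) for 9 of the 10 members, with 11 windows in all because Maff has 3 starts. They are shown for Jun and Maff, which rose with RAS in both series, for Fosl2, which rose in one, and for Fos, which did not rise. Fosl1, which also rose in both series, was the member without a window and was not searched. The strings searched on both strands were the consensus AP-1 site (TGACTCA), the site of Jun and Atf dimers at the Jun promoter (TGACATCA), the cyclic AMP response element (TGACGTCA), the shorter form of that element (TGACGT), the TATA box (TATAAA) and the CArG box, where SRF binds. Matches are in capitals.
Jun (chr4:95052223-95052472, minus strand): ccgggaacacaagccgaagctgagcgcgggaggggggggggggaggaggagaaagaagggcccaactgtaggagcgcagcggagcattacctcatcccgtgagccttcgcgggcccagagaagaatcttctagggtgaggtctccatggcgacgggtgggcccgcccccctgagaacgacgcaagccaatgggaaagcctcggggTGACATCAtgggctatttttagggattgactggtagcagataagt
Maff, second start (chr15:79347270-79347519, plus strand): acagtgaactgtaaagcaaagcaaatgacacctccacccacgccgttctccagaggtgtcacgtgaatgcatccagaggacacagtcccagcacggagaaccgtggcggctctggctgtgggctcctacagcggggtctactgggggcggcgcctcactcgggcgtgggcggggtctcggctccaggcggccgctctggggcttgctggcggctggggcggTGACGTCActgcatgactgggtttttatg
Fosl2 (chr5:32136222-32136471, plus strand): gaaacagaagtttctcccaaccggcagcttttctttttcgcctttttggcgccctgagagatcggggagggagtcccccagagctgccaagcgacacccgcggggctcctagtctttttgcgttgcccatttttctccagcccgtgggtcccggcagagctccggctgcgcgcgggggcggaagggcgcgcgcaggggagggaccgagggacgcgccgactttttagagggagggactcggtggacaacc
Fos (chr12:85473640-85473889, plus strand): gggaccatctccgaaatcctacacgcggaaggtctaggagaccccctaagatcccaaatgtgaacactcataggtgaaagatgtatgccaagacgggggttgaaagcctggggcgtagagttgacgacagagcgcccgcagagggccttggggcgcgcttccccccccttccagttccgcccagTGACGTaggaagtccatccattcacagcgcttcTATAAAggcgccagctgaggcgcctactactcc
The Jun window held TGACATCA from base -45 to -38 before the start, a match found in 2.93% of all 32851 RefSeq windows. The third Maff start had the same letters at the same distance, -45 to -38. The second Maff start held TGACGTCA at -29 to -22, as did 1.55% of all windows. Fos had TGACGT at -66 to -61 and TATAAA at -33 to -28, found in 6.47% and 12.4% of windows, and Atf3 had TGACGT at -8 to -3. TGACGT lies within TGACGTCA and so counts its matches too. TGACTCA (4.46% of windows) and the CArG box (1.47%) had no match in any of the 11 windows, and neither the Fosl2 window nor those of Fosb, Junb, Jund and Batf3 held any of the strings. These matches describe letters in a short window, not binding, and sites outside the windows were not searched.

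Libraries held 8319445 to 14402442 counts. In the library with the fewest counts, a count of 0 allows a level of up to 0.361 counts-per-million (CPM), for counting error alone. As a check of the labels, Rps6kb1 was at 23.6 to 37.0 CPM in KO RAS and 34.5 to 39.7 CPM in DKO RAS, against 61.6 to 102.5 CPM in the 12 WT libraries. Rps6kb2 was at 2.68 to 3.04 CPM in DKO RAS and 19.4 to 30.6 CPM in all other libraries. Hras was higher in WT RAS than in WT EV in both series (log2 fold changes 0.93 and 0.75, adjusted p 0.00290 and 0.00568 in edgeR). All 12 fibroblast markers, such as Col1a1 and Pdgfrb, were detected in every group, and their summed level was 45010 to 56210 CPM in EV and 24270 to 37100 CPM in RAS libraries. Macrophage and dendritic markers (23 genes) differed widely between libraries: in the S6K1 series they summed to 761 to 3772 CPM for WT EV, 816 to 4227 CPM for WT RAS and 274 to 972 CPM for KO RAS. The S6K1/S6K2 series had sums of 184 to 1713 CPM for WT EV, 194 to 1149 CPM for WT RAS and 79.8 to 271 CPM for DKO RAS. Of these markers, Xcr1, Flt3 and Clec9a were at 0 in all libraries of at least 1 group. Epithelial markers (7 genes, mainly Krt18) summed to 1.33 to 10.3 CPM in EV and 67.95 to 195 CPM in RAS libraries, with Krt5 and Krt14 at 0 in WT RAS of the S6K1 series. Endothelial (8 genes), muscle (8) and neural (6) markers did not exceed 16.9, 27.8 and 102 CPM in any library. In bulk RNA, fewer cells of a type and less RNA per cell cannot be told apart. The part of these cells in the levels below was not tested.

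To compare the members with each other, levels were divided by exon length and given as CPM per kb (mean ± SD, n = 3). In WT EV cells of the S6K1 series, Junb (45.5 ± 17.5) and Jund (43.1 ± 6.75) were highest, followed by Fosl2 (32.2 ± 1.53) and Jun (29.9 ± 2.21). Far below these came Fos (8.65 ± 10.9), Fosl1 (7.72 ± 3.24), Maff (7.45 ± 3.57) and Atf3 (5.55 ± 4.31), whose order could not be told from the spread between libraries, and Fosb (1.14 ± 0.39). In WT RAS cells of the same series Jun was at 69.9 ± 15.4, Junb at 51.7 ± 16.5 and Jund at 39.9 ± 4.58, and Fosl1 (28.4 ± 3.78) stood beside Fosl2 (26.5 ± 3.73). The S6K1/S6K2 series had Jund (47.4 ± 4.64), Junb (39.6 ± 3.68) and Jun (30.9 ± 6.06) on top in WT EV and Jun (50.6 ± 14.1), Junb (48.6 ± 9.50), Jund (43.6 ± 4.58) and Fosl2 (41.3 ± 7.57) in WT RAS, where the ranges of these neighbors overlapped. Batf3, a dendritic cell factor that lies 61352 bases from Atf3 on chromosome 1, had 0 to 6 counts in each library and was too low to be tested. Its highest level was 0.715 CPM, in a WT RAS library of the S6K1/S6K2 series. The other 9 members passed the filter on low counts in every comparison. For 3 members another gene lies on the opposite strand: 68.1% of the exonic bases of Fosl1 lie under an exon of Ccdc85b, 18.9% of those of Jund under Gm11175 and 7.28% of those of Jun under BC042782. The strand setting of the counting is not given in the sources used here, and Ccdc85b was not analysed here. BC042782 was at 5.30 CPM or less and Gm11175 at 4.69 CPM or less in all WT libraries, far under Jun and Jund.

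To ask how oncogenic RAS changed the members in WT cells, WT RAS was compared with WT EV in each series. Fosl1, Jun and Maff rose in both series and Fosl2 rose in the S6K1/S6K2 series, and no member fell past the threshold. In the S6K1 series 3 of 9 tested members were called, all higher, where 13.2% of all 14036 genes were called and 7.15% were called higher. In the S6K1/S6K2 series 4 of 9 were called, all higher, against 26.3% of 13881 genes called and 13.5% called higher. The median log2 fold change of the 9 members was 0.21 and 0.56, beside 0.0018 and -0.024 over all genes tested. A gene was called at an adjusted p under 0.05 (edgeR's two-sided quasi-likelihood test, Benjamini-Hochberg over all genes).

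**Figure D1:**
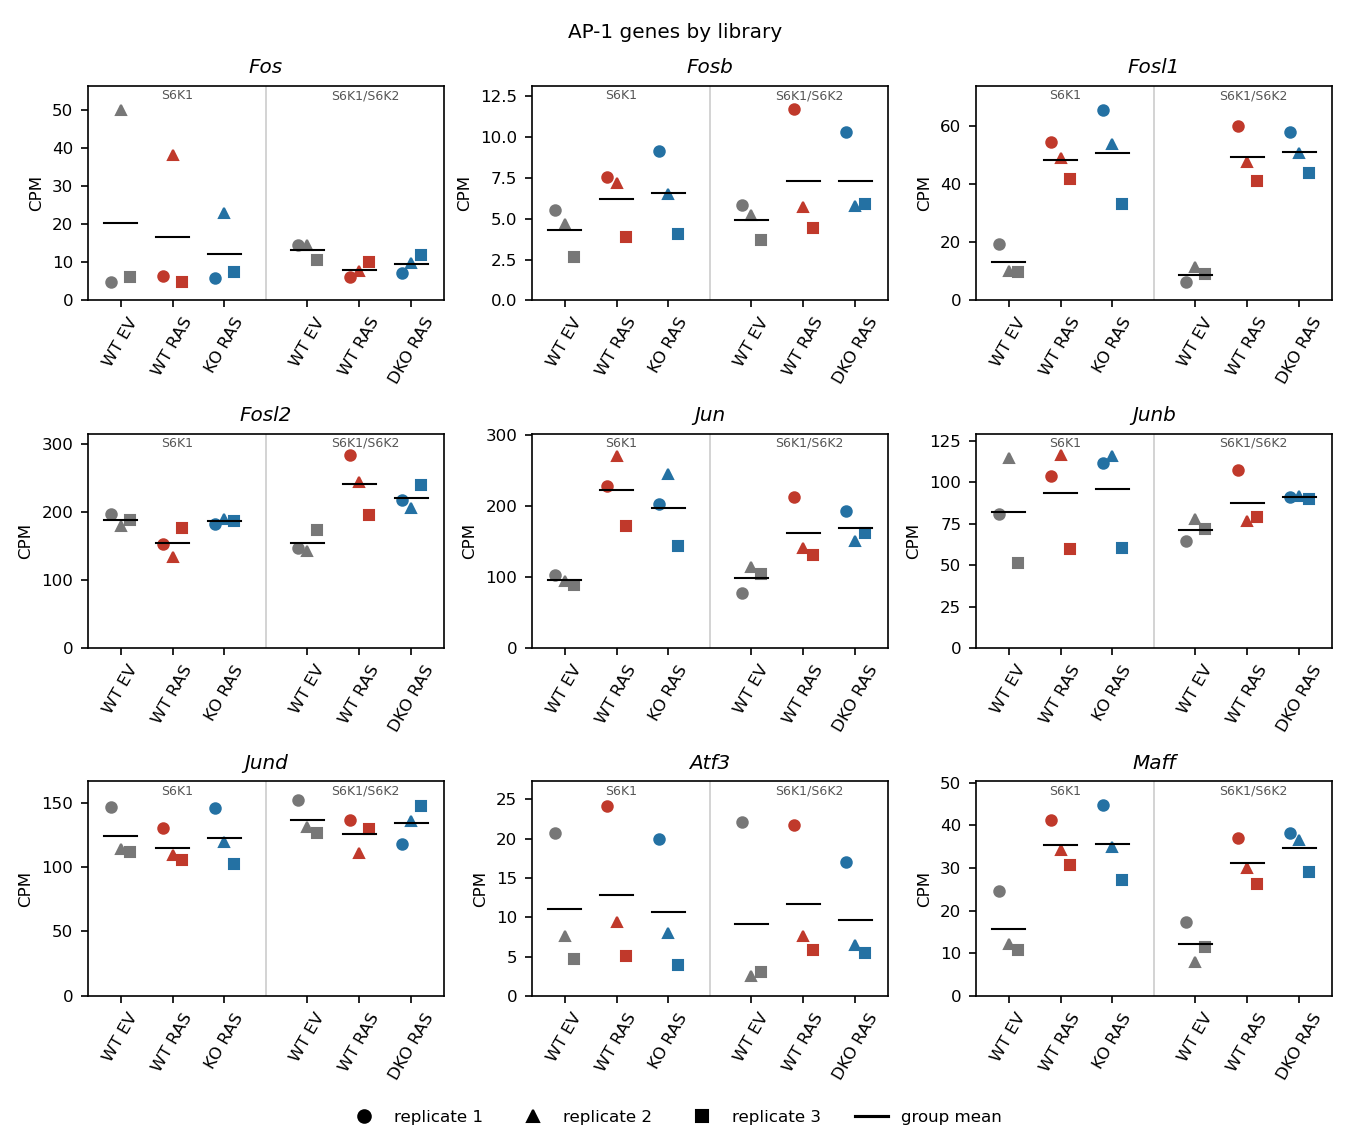
Level of 9 AP-1 genes in each of the 18 libraries, in CPM scaled within each series, on linear axes from 0; gray, red and blue points are WT EV, WT RAS and KO or DKO RAS, the symbol gives the replicate number and the bar the mean of 3 libraries. Fosl1, Jun and Maff in WT RAS lie above all WT EV libraries of their series, while Atf3 is highest in replicate 1 of each of the 6 groups and Fos is highest in replicate 2 of each group of the S6K1 series.

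Fosl1, the Fos family member known to accumulate with sustained ERK signaling, had the highest fold change. The gene lies at chr19:5447703-5455945 on the plus strand (NCBIM37). Without RAS it was measured at 19.6, 10.1 and 9.89 CPM, against WT RAS levels of 54.7, 49.1 and 41.9 CPM, in the S6K1 series. In the S6K1/S6K2 series its levels were 6.20, 11.4 and 9.0 CPM in WT EV and 60.1, 47.6 and 41.0 CPM in WT RAS. Every RAS library was above every EV library, by more than the spread within either group. The log2 fold change was 1.88 ± 0.32 (SE, edgeR adjusted p 0.00488) in the S6K1 series and 2.48 ± 0.23 (SE, edgeR adjusted p 0.000180) in the S6K1/S6K2 series, that is, 3.67-fold and 5.58-fold. These placed Fosl1 near the top of the tested genes, with 3.15% and 2.73% of genes showing a higher log2 fold change. Each single library could be left out without losing either call, whereas leaving out all libraries of replicate 2, which leaves 2 lines per group, gave 1.70 and an adjusted p of 0.151 in the S6K1 series.

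Jun, the main partner of Fos proteins and the strongest activator of its family, was also higher. It is a single-exon gene on the minus strand at chr4:94715725-94718913 (NCBIM37). Its level was 102.9, 94.6 and 88.9 CPM in WT EV and 228, 270 and 172 CPM in WT RAS of the S6K1 series (log2 fold change 1.22 ± 0.22 SE, edgeR adjusted p 0.00607). In the S6K1/S6K2 series its levels were 76.9, 114 and 105 CPM in WT EV and 213, 141 and 131 CPM in WT RAS (log2 fold change 0.71 ± 0.21 SE, edgeR adjusted p 0.0352). The groups did not overlap in either series, but in the S6K1/S6K2 series replicates 2 and 3 of WT RAS were close to the highest EV library. The call there was lost without WT EV replicate 1 (0.56, adjusted p 0.0905), WT RAS replicate 1 (0.46, 0.102) or WT RAS replicate 2 (0.80, 0.0556), with the replicate number as a block (0.68, 0.0547) and in a fit over only the 6 compared libraries (0.73, 0.0591).

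Maff encodes a small Maf protein that lacks a transactivation domain and pairs with other leucine zipper proteins, and lies at chr15:79177971-79189502 on the plus strand (NCBIM37). Its levels were 24.5, 12.1 and 10.8 CPM in WT EV and 41.3, 34.2 and 30.6 CPM in WT RAS of the S6K1 series (log2 fold change 1.16 ± 0.31 SE, edgeR adjusted p 0.0404). They were 17.4, 8.05 and 11.4 CPM in WT EV and 37.1, 30.01 and 26.3 CPM in WT RAS of the S6K1/S6K2 series (a log2 change of 1.34 ± 0.26 SE, edgeR adjusted p 0.00569). In both series all RAS libraries were above all EV libraries, and replicate 1 was highest in each group. The call in the S6K1 series was lost without WT EV replicate 2 (1.00, adjusted p 0.139), WT EV replicate 3 (0.95, 0.120), WT RAS replicate 1 (1.03, 0.122) or WT RAS replicate 2 (1.19, 0.100), and in a fit over only the 6 compared libraries (1.16, 0.0653).

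Fosl2, at chr5:32438845-32460204 on the plus strand (NCBIM37), was lower with RAS in one series and higher in the other. Its levels were 197, 179 and 188 CPM in WT EV and 154, 134 and 177 CPM in WT RAS of the S6K1 series, so that every RAS library was below every EV library (log2 fold change -0.28 ± 0.12 SE, edgeR adjusted p 0.167). In the S6K1/S6K2 series they were 147, 143 and 175 CPM in WT EV and 285, 245 and 196 CPM in WT RAS, with every RAS library above (log2 fold change 0.64 ± 0.16 SE, edgeR adjusted p 0.0147). With the replicate block, where RAS and EV libraries of one line are compared, the lower level in the S6K1 series passed the threshold (-0.29, adjusted p 0.0351 in edgeR). The rise in the S6K1/S6K2 series did not pass without WT EV replicate 2 (0.59, adjusted p 0.0584). The difference between the 2 effects was tested over all 18 libraries, where a batch cannot be told apart from the series. It was 0.92 (SE 0.19, unadjusted p 0.000181, adjusted p 0.109 in edgeR over 14483 genes), and 0 of 9 members and 0% of all genes were called in that test. DESeq2 called the Fosl2 difference (0.93, adjusted p 0.00216), as did edgeR without a filter (0.93, 0.0387) and without WT EV replicate 3 of the S6K1/S6K2 series (1.02, 0.017). Of the other members, none had an unadjusted p under 0.05 for this difference.

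The remaining members did not pass the threshold in edgeR. Fos, the founding immediate early member, was at 4.94, 49.9 and 6.14 CPM in WT EV and 6.49, 38.2 and 4.98 CPM in WT RAS of the S6K1 series. In both groups replicate 2 was several times above the other lines, and the groups overlapped (log2 fold change -0.30, SE 1.03, 95% confidence interval -2.61 to 2.02). Within the S6K1/S6K2 series Fos was at 14.6, 14.7 and 10.6 CPM in WT EV and 6.16, 7.62 and 10.01 CPM in WT RAS, with every RAS library below every EV library (log2 fold change -0.74 ± 0.26 SE, edgeR adjusted p 0.0641). It was called lower by DESeq2 (-0.73, adjusted p 0.046) and by edgeR without WT EV replicate 3 (-0.87, adjusted p 0.0428). Fosb, a close relative of Fos, was at 2.66 to 5.50 CPM in WT EV and 3.86 to 7.51 CPM in WT RAS of the S6K1 series (log2 fold change 0.52) and at 3.67 to 5.85 and 4.45 to 11.7 CPM in the S6K1/S6K2 series (0.56). Its adjusted p was 0.443 and 0.323 in edgeR. In the S6K1 series each line had a higher Fosb level with RAS, and with the replicate block its change of 0.53 had an adjusted p of 0.0282 in edgeR, which with Fosl2 brought the count of called members from 3 to 5.

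Junb, which can oppose Jun at some promoters, had log2 fold changes of 0.18 and 0.30, with 95% confidence intervals of -0.62 to 0.98 and -0.025 to 0.62. Jund, the Jun protein typical of resting cells, had values of -0.11 and -0.12, with intervals of -0.48 to 0.26 and -0.42 to 0.18. The intervals of Jund leave room for a difference of at most 0.48 on the log2 scale, whereas those of Fos in the S6K1 series leave room for far larger ones. Atf3, a stress-induced factor that pairs with Jun, had values of 0.21 and 0.35, and its intervals, -1.47 to 1.89 and -1.52 to 2.23, were among the widest.

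**Figure D2:**
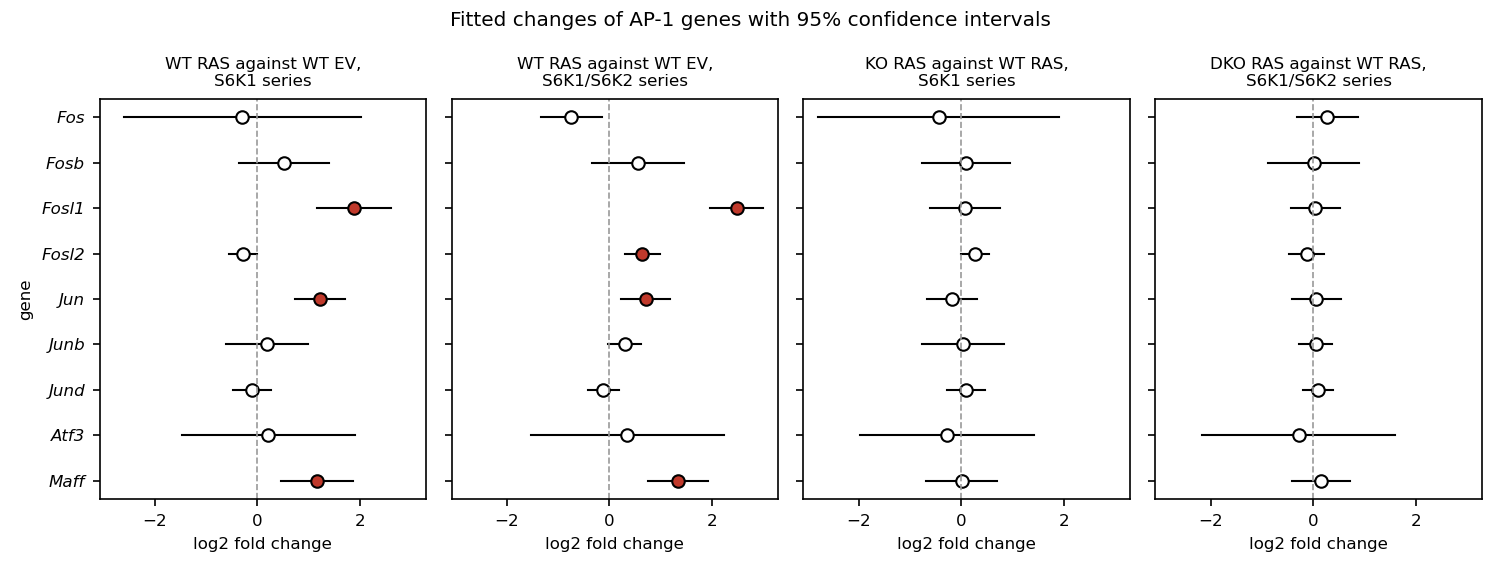
Fitted log2 fold change of 9 AP-1 genes (points) with 95% confidence intervals (lines) in 4 comparisons from edgeR; filled points have an adjusted p under 0.05. Fosl1, Jun and Maff are filled in both comparisons of WT RAS with WT EV, and no point is filled for KO or DKO RAS against WT RAS.

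Some members differed more between replicate numbers than between groups. In the S6K1 series, replicate 1 had an Atf3 level of 20.7 (WT EV), 24.2 (WT RAS) and 19.9 CPM (KO RAS), and Atf3 was at 3.92 to 9.35 CPM in the remaining 6 libraries. Replicate 1 of the S6K1/S6K2 series had 22.1 (WT EV), 21.7 (WT RAS) and 17.1 CPM (DKO RAS), and the other 6 libraries had 2.48 to 7.62 CPM. Replicate 1 was thus highest for Atf3 in all 6 groups, although the lines of the 2 series have only the number in common in the labels. Replicate number accounted for 97.8% and 80.4% of the variance of log2 Atf3 level in the series, where the median over 14483 genes was 38.8% and 16.7% and only 0.0414% and 1.34% of genes had a larger share. Fos followed replicate number in the S6K1 series alone, with 49.9 (WT EV), 38.2 (WT RAS) and 23.1 CPM (KO RAS) in replicate 2 and 4.94 to 7.58 CPM in the other libraries. The share was 93.3% there and 12.1% in the S6K1/S6K2 series. For Junb it was 91.8% and 3.77%, for Jund 92.6% and 12%, and for Fosb 72.8% and 63.6%. By contrast, group accounted for 86.1% and 95.3% of the variance of Fosl1, 81.5% and 68.1% of that of Jun and 72.0% and 84.6% of that of Maff. The median group share over 14483 genes was 38.1% and 45.8%. Summed macrophage and dendritic markers were also highest in replicate 1 of each group. In WT EV of the S6K1/S6K2 series they were at 1713 CPM in replicate 1 against 184 and 242 CPM in replicates 2 and 3. In WT EV of the S6K1 series they were at 3772, 2848 and 761 CPM in replicates 1, 2 and 3. Atf3 was at 20.7, 7.6 and 4.67 CPM in the same libraries. WT RAS of that series had sums of 4227, 3752 and 816 CPM, with Atf3 at 24.2, 9.35 and 5.06 CPM. KO RAS had sums of 972, 750 and 274 CPM, with Atf3 at 19.9, 8.05 and 3.92 CPM. DKO RAS had sums of 271, 79.8 and 106 CPM, with Atf3 at 17.1, 6.49 and 5.42 CPM. The part of these cells in the Atf3 and Fos levels was not tested. Without all libraries of replicate 1, a fit added after seeing these levels, Atf3 was called higher with RAS in the S6K1/S6K2 series (1.30, adjusted p 0.0144 in edgeR), from 2.48 and 2.97 CPM in WT EV to 7.62 and 5.84 CPM in WT RAS.

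The makeup of each family was then compared as the share of its summed CPM per kb. In WT EV, Fosl2 made up most of Fos family RNA, at 66.3 ± 13.2% in the S6K1 series and 68.4 ± 5.24% in the S6K1/S6K2 series. The share of Fosl1 was 23.5, 9.98 and 14.0% in the WT EV libraries and 50.8, 41.2 and 42.3% in the WT RAS libraries of the S6K1 series. It was 9.95, 17.3 and 13.0% in WT EV and 39.3, 37.5 and 38.2% in WT RAS of the S6K1/S6K2 series. Over both series the Fosl1 share was 26.9 percentage points higher with RAS (exact permutation test within series, two-sided, p = 0.005, the smallest this test allows), higher in 6 of 6 lines. Fos took 3.65 to 23.3% in WT RAS of the S6K1 series and 2.92 to 6.75% in that of the S6K1/S6K2 series, and Fosb 3.47% or less in all 6 of these libraries. In the Jun family the Jun share rose by 13.3 percentage points (exact permutation p = 0.005). It was 21.4 to 29.4% over the 6 WT EV libraries and 31.6 to 45.2% over the 6 WT RAS libraries, which did not overlap. With 3 libraries against 3 in 1 series alone, the smallest p is 0.1, so the shares were tested over both series together. These tests permuted labels freely within a series, although EV and RAS libraries share lines, so their p-values ignore that pairing. Shares within a family sum to 100%, so a rise of one member lowers the others without any fall in their own level.

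**Figure D3:**
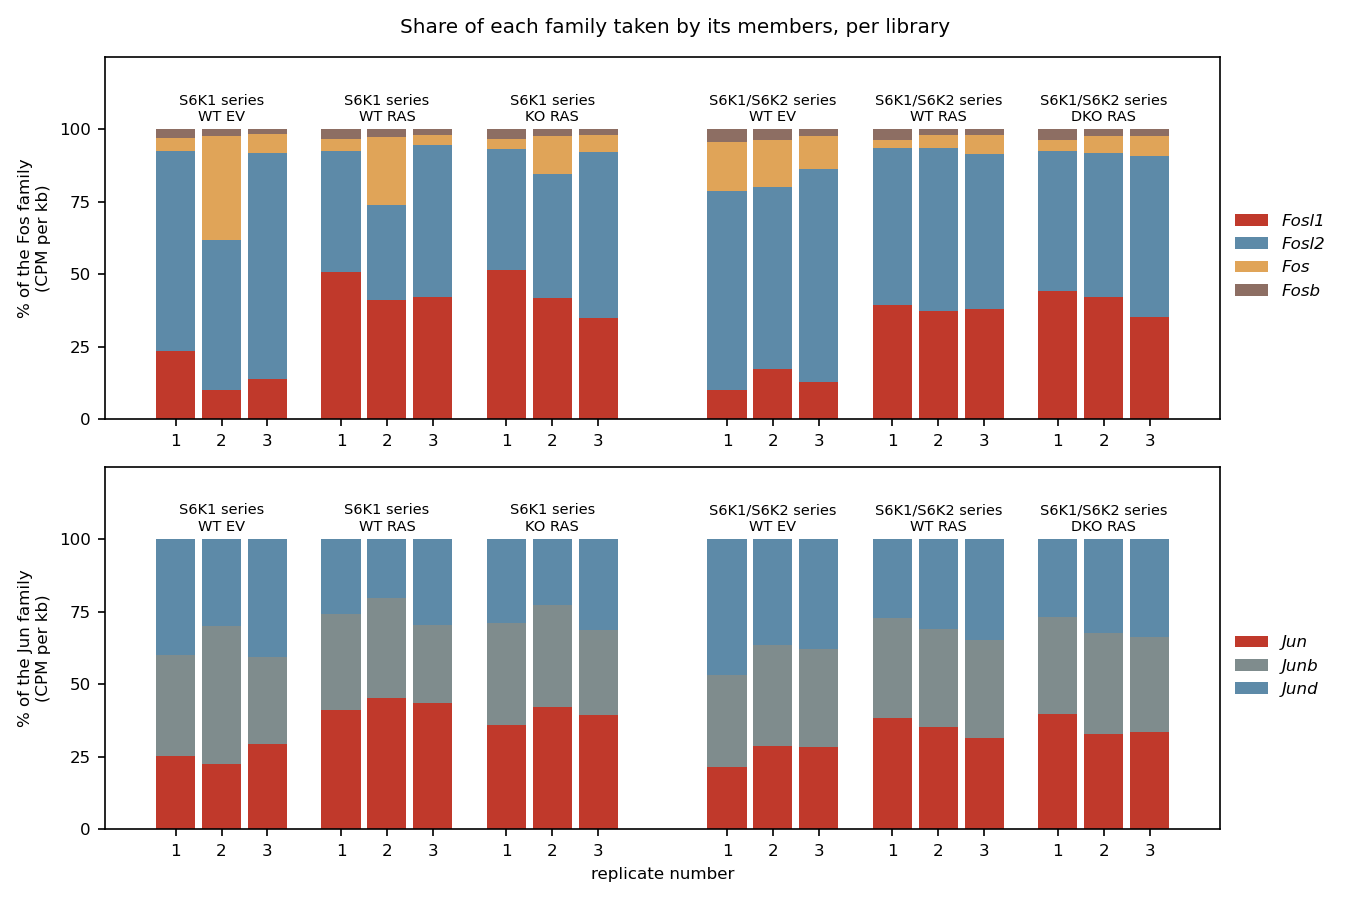
Share of summed CPM per kb taken by each member of the Fos family (top) and the Jun family (bottom), in percent, with 1 bar for each of the 18 libraries. The Fosl1 part of the bars is 9.98 to 23.5% in WT EV and 34.9 to 51.5% in RAS libraries of the S6K1 series, and Fos takes its largest part in replicate 2 of that series.

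To ask whether loss of the S6 kinases altered AP-1 genes in cells with RAS, KO RAS and DKO RAS were compared with WT RAS. No member was called in either comparison. With loss of S6K1, 0 of 9 members passed the threshold in edgeR and 1 had an unadjusted p under 0.05, where 0.00712% of all genes were called. After loss of both kinases 0 of 9 passed and 0 had an unadjusted p under 0.05, where 0.0216% of all genes were called. DESeq2 and the replicate block also called 0 members in both comparisons, though KO and DKO libraries share no line with same-numbered WT libraries. The loss effects of the series differed for 0 of 9 members, where 0.0069% of all genes were called. As so few genes were called at all, the counts carry little information on the members, and intervals are given for each.

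Fosl1 was at 65.5, 54.0 and 33.2 CPM in KO RAS and 58.2, 50.9 and 44.0 CPM in DKO RAS, and both groups overlapped the WT RAS libraries of their series. The log2 fold change with loss was 0.068 (95% confidence interval -0.62 to 0.75) for S6K1 and 0.042 (-0.43 to 0.52) for both kinases, and both lower bounds were smaller in size than the rise with RAS. Jun was at 202, 246 and 143 CPM in KO RAS and 193, 151 and 161 CPM in DKO RAS. Its log2 fold changes were -0.18 (-0.66 to 0.30) and 0.061 (-0.41 to 0.53). Maff was at 44.7, 34.95 and 27.2 CPM in KO RAS and 38.2, 36.5 and 29.1 CPM in DKO RAS, with values of 0.011 (-0.68 to 0.70) and 0.15 (-0.41 to 0.72). For all 3 genes the groups overlapped in both series.

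Fosl2 was the member with an unadjusted p under 0.05 after S6K1 loss. Its KO RAS libraries had 182, 190 and 188 CPM, above the 3 WT RAS libraries and within the range of WT EV (log2 fold change 0.27, 95% confidence interval 0.00098 to 0.54, unadjusted p 0.0493, adjusted p 0.726 in edgeR). In DKO RAS it was at 218, 206 and 240 CPM, overlapping WT RAS (-0.13, -0.48 to 0.22). The log2 fold changes of the remaining members lay between -0.44 (Fos) and 0.094 (Jund) with S6K1 loss and between -0.28 (Atf3) and 0.28 (Fos) with loss of both. The intervals of Fos after S6K1 loss (-2.79 to 1.90) and of Atf3 in both series (-1.97 to 1.41 and -2.16 to 1.60) do not exclude changes of several fold. The Fosl1 share of the Fos family differed by 0.091 percentage points between KO or DKO RAS and WT RAS (exact permutation test within series, two-sided, p = 0.98), and the Jun share by -1.97 points (p = 0.31). Macrophage and dendritic markers had a median log2 fold change of -2.21 over 19 tested markers in KO RAS and -1.94 over 18 in DKO RAS, with 0 called, and their part in the values above was not tested.

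The levels reached by KO RAS and DKO RAS were also set beside WT EV, a comparison in which RAS and genotype differ together. The EV libraries are those used above, so these values are not independent of the WT comparison. In KO RAS 3 of 9 members were called, all higher (18.1% of all genes called, 9.55% higher), namely Fosl1 (1.94, SE 0.32, adjusted p 0.00345 in edgeR), Jun (1.04, SE 0.22, adjusted p 0.0108) and Maff (1.17, SE 0.31, adjusted p 0.0318). With the replicate block 4 members were called, Fosb being added. In DKO RAS 4 of 9 were called, all higher (25.7% called, 13.1% higher). These were Fosl1 (2.52, SE 0.23, adjusted p 0.000166 in edgeR), Fosl2 (0.51, SE 0.16, adjusted p 0.0363), Jun (0.77, SE 0.21, adjusted p 0.0259) and Maff (1.495, SE 0.26, adjusted p 0.00335). The Maff call in KO RAS was lost without WT EV replicate 2 (1.00), WT EV replicate 3 (0.96), KO RAS replicate 1 (0.95) or KO RAS replicate 2 (1.18), and over only the 6 compared libraries (1.16, adjusted p 0.0588). In DKO RAS the Jun call was lost without WT EV replicate 1 (0.62) or DKO RAS replicate 1 (0.67), and the Fosl2 call without WT EV replicate 1 (0.48), WT EV replicate 2 (0.46) or DKO RAS replicate 1 (0.53), 2 (0.57) or 3 (0.46). The Fosl1 calls held in each fit that left out 1 library.

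The members were next compared with each other over the 18 libraries, some of which share a line. After log2 CPM in each series was centered on its mean, Fosl1 had a Pearson's r of 0.911 with Maff and 0.891 with Jun. Within groups, where the RAS effect is removed, these fell to 0.472 and 0.738, and the highest r was that of Atf3 and Maff (0.893), followed by Atf3 and Fosb (0.818). Among 9829 genes with a mean of at least 100 counts, the 5 most like Fosl1 were Dyrk3 (r = 0.988), Esd, Cmas, Hmga1 and Gap43 (0.984). Those most like Jun were Tmem51 (0.958), Nap1l4, the ERK phosphatase gene Dusp9, Srxn1 and Ly6e (0.94). The genes most like Maff were Myc (0.976), 1700037H04Rik, Hbegf, Ctsb and Tnfrsf12a (0.967). These are descriptions over libraries of which 12 carry RAS.

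Genes known as AP-1 targets were then counted, from a list chosen with earlier results of these data known, so the counts are a description. Of 27 genes, all tested, 15 were higher and 0 lower in WT RAS of the S6K1 series, and 23 higher and 0 lower in the S6K1/S6K2 series. Of all genes tested, 7.15% and 13.5% were called higher. Their median log2 fold change was 1.19 and 2.24, beside 0.0018 and -0.024 over all genes. Mmp10, a stromelysin, was at 2.29 to 6.33 CPM in WT EV and 320.5 to 611 CPM in WT RAS of the S6K1 series (log2 fold change 7.04, adjusted p 0.000127 in edgeR), and at 0.0873 to 0.962 and 253 to 441 CPM in the S6K1/S6K2 series (9.69, adjusted p 3.57e-05). The lowest Mmp10 level in WT EV of the S6K1/S6K2 series was under what a count of 0 allows there (0.267 to 0.281 CPM). Leaving out libraries of that series gave Mmp10 changes of 9.08 to 11.2. Areg, which encodes the EGF receptor ligand amphiregulin, rose by 5.72 and 7.29 (adjusted p 0.000127 and 6.64e-06 in edgeR). Mmp1a, a collagenase gene, had at most 2 and 3 counts in the WT EV libraries of the S6K1 and S6K1/S6K2 series, and its WT RAS libraries were at 23.8 to 85.3 CPM and 15.5 to 23.3 CPM. Mmp1a and Mmp1b are close paralogs between which reads can be shared. In contrast, Il6 (-0.52 and 0.22), Mt1 (0.12 and -0.48) and Mt2 (0.24 and -0.19) did not pass in either series. None of the 27 was called with loss of S6K1 or of both kinases in edgeR, with median changes of 0.13 and 0.12.

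**Figure D4:**
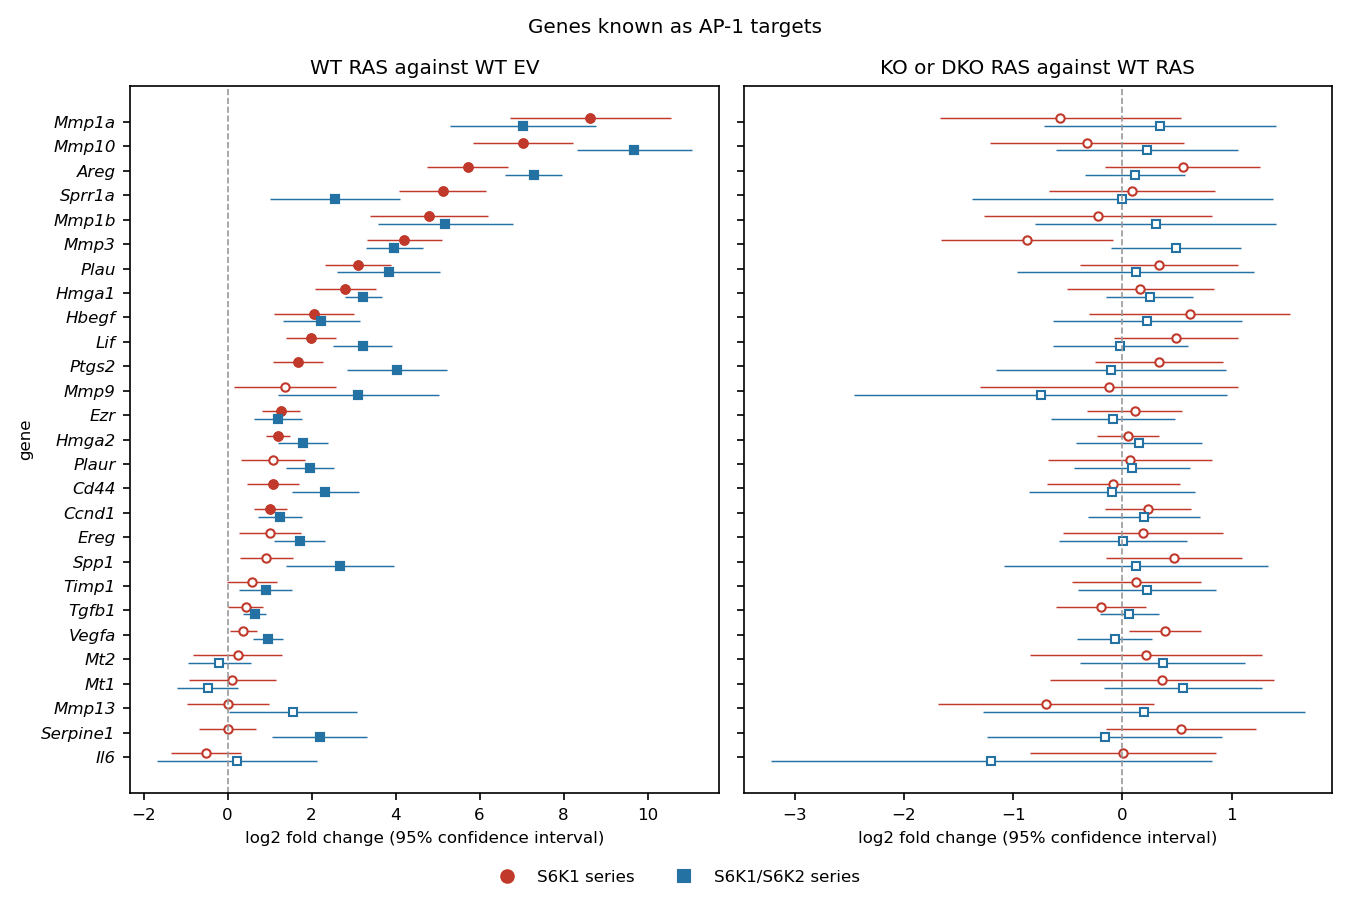
Fitted log2 fold change of 27 genes known as AP-1 targets with 95% confidence intervals, for WT RAS against WT EV (left) and KO or DKO RAS against WT RAS (right); red circles are the S6K1 series, blue squares the S6K1/S6K2 series, filled where the adjusted p in edgeR was under 0.05. In the left panel 15 circles and 23 squares are filled, all above 0, and in the right panel none is filled. In the left panel the Mmp1a points, and the Mmp1b point of the S6K1/S6K2 series, rest on WT EV libraries with 3 counts or less.

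Other immediate early genes, which share the fast response of Fos and Jun to growth signals, did not move as one group. Of 30 tested, 4 were higher and 1 lower in the S6K1 series, and 11 higher and 3 lower in the S6K1/S6K2 series. Of all genes tested, 13.2% were called in the S6K1 series and 26.3% in the S6K1/S6K2 series. Phlda1 (1.99 and 2.21), Ier3 (1.82 and 2.29) and Plk3 (1.44 and 2.31 on the log2 scale) rose in both, and Gadd45b, a stress gene, fell in both (-1.61 and -1.47). Arc (-2.38) and Klf2 (-1.70) were called lower in the S6K1/S6K2 series only, and the difference between series was called for no gene of the list. All adjusted p values of these calls were 0.0193 or less in edgeR.

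Of 17 kinases upstream of AP-1 that were tested, 2 were called in the S6K1 series, both higher, where 13.2% of all genes were called. In the other series 5 were higher and 1 lower, where 26.3% of all genes were called. Rps6ka2, which encodes the ERK-activated kinase RSK3, rose by 1.81 and 2.31, and Map2k6, which activates p38, rose by 1.91 and 1.17. Map2k1, the gene of the ERK kinase MEK1, rose by 0.65 in the S6K1/S6K2 series and Map2k5 fell there by 0.46. Among 15 factors that act at Fos and Jun promoters, 2 were higher and 2 lower in the S6K1 series and 4 higher and 2 lower in the S6K1/S6K2 series, beside the same shares of all genes. Elk3, a ternary complex factor that binds with SRF, rose by 0.63 and 0.86. Crem rose by 0.79 in the S6K1 series, and Ets1 (1.34) and Mkl2 (0.64) rose in the S6K1/S6K2 series. Mef2c (-0.90 and -2.42) and Stat3 (-0.71 and -0.42) were lower in both.

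Of the dimer partners and related leucine zipper factors, 2 were higher and 2 lower of 14 tested in the S6K1 series, where 13.2% of all genes were called. In the S6K1/S6K2 series 2 were higher and 4 lower of 13 tested, where 26.3% of all genes were called. Creb5 (0.97 and 1.40) and Nfe2l2, the gene of the antioxidant regulator NRF2 (0.64 and 0.69), rose in both series. Bach1 (-0.95) was lower in the S6K1 series, and Jdp2, which represses AP-1 sites (-1.36), and Maf (-1.19) in the S6K1/S6K2 series. Some of these list calls were lost when a single library was left out, for several choices of that library. In the S6K1 series Creb5 (0.83 to 0.87), Nfe2l2 (0.56 to 0.61) and Crem (0.69 to 0.81) lost theirs without WT EV replicate 2 or 3 or WT RAS replicate 1, the latter pair also without WT RAS replicate 2, and Bach1 (-0.83 to -0.80) without WT EV replicate 2 or WT RAS replicate 1. In the S6K1/S6K2 series Stat3 (-0.46 to -0.29), Maf (-1.27 to -1.11) and Klf2 (-1.56 to -1.45) were lost without WT EV replicate 2 or WT RAS replicate 2 or 3, Stat3 also without WT EV replicate 3 and Maf without WT RAS replicate 1. Mkl2 (0.48 to 0.60) was lost without WT EV replicate 1 or 2 or WT RAS replicate 2 or 3, and Map2k5 (-0.51 to -0.34) without each of these or WT RAS replicate 1. Jdp2 (-1.22 to -1.21) and Map2k6 (1.03 to 1.24) were lost without WT RAS replicate 2 or 3. The Mef2c call in the S6K1 series was lost over all 18 libraries (-0.88, edgeR adjusted p 0.129), as was that of Mkl2 in the S6K1/S6K2 series (0.64, 0.0692). Without a filter Map2k5 (-0.46, edgeR adjusted p 0.0806) and Stat3 (-0.43, 0.0886) lost their calls in the S6K1/S6K2 series. Over only the 6 compared libraries of that series Map2k5 (-0.44, edgeR adjusted p 0.0824), Mkl2 (0.65, 0.0831) and Stat3 (-0.40, 0.0847) did. No gene of these 4 lists was called after loss of S6K1 or of both kinases in edgeR, where their medians lay between -0.053 and 0.078.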

How the data were processed

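The authors deposited raw counts per gene in 1 table for all 18 libraries, with 55401 Ensembl identifiers and no unused sample column. The submitters' processing notes name CASAVA, STAR 2.7.1a, DESeq2 1.28.1 and build mm10, whereas the study's methods name TopHat, HTSeq and mm9 for stranded single-end libraries, and which made the deposited counts is not settled. Exon lengths and overlaps came from the NCBIM37 annotation and promoters from RefSeq (GRCm38.p6). The 10 members were matched by symbol. Members and lists were chosen with earlier results of these data known.

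Groups and replicate numbers were taken from the labels. Each series was fitted alone over 9 libraries in R 4.3.3 with edgeR 4.0.16 (filterByExpr, minimum count 10, TMM, glmQLFit, glmQLFTest), with Benjamini-Hochberg adjustment over all genes tested and a threshold of 0.05. Differences between series were fitted over 18 libraries. CPM values were scaled by TMM within a series. Intervals are 95%. The p-values rest on the spread between the 3 libraries of a group, and RAS and EV libraries of one line were paired only in the replicate block. Code was tested on simulated data. Replicates differed by far more than sampling noise in all 18 pairs (chi-square at least 7.98 times its degrees of freedom), so each library counted as 1 sample. Total counts per library, 8319445 to 14402442, set a floor of 3 counts, or 0.208 to 0.361 CPM.

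Alternatives were DESeq2 1.42.0, scaling by DESeq2 size factors or the upper quartile, testing without a filter or with a minimum of 10 counts in each library, fits over the 6 compared or all 18 libraries, the replicate block and leaving out each library. Leaving out all libraries of 1 replicate number was added after seeing the data. Deviations of same-numbered libraries from their group means correlated at 0.684, 0.444 and 0.668 for WT RAS with WT EV in the S6K1 series. In the S6K1/S6K2 series these correlations were 0.366, 0.293 and 0.308. KO RAS with WT RAS gave 0.692, 0.393 and 0.616, and DKO RAS with WT RAS gave 0.279, 0.454 and -0.0351. KO and DKO cells came from other embryos than WT cells of the same number. The replicate block joined all libraries of one number in a series, DKO included. For KO and DKO it therefore does not compare cells of one line. Named were the members, Rps6kb1, Rps6kb2, Hras, the called genes of each list among the top 3 by log2 fold change in either direction of a WT comparison, and the 5 genes most like each member called in both. 1 of the list genes is not reported here. Other genes (Il6, Mt1, Mt2, Mmp1b, the markers at 0, Krt18 and the overlapping genes) were named after their values were seen.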

Additional observations from a re-analysis of the deposited data

Results flagged for a closer look

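Fosl2 was flagged because its WT RAS libraries were all below WT EV in the S6K1 series and all above in the S6K1/S6K2 series. The share of all genes with such a pattern was not counted. In the main fits the fall was not called (adjusted p 0.167 in edgeR), whereas the rise was (adjusted p 0.0147). The difference of the log2 fold changes was 0.92 (95% confidence interval 0.52 to 1.31, adjusted p 0.109 in edgeR) and was not called. Over the alternatives the adjusted p of this difference was as low as 0.00216 (DESeq2), and it was 0.0573 with the replicate block. An effect of the series and one of a batch cannot be told apart here.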

How the results depend on the processing

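All values here are log2 changes or counts of called members unless given in percentage points. Of 1442 single-gene values recomputed for 85 results, 56 changed sign, and 0 of these were called under either setting; 128 called values lost their call and 8 gained one. The replicate block raised the count of called members in WT RAS against WT EV of the S6K1 series to 5, and besides that and the calls given above for Fosb, Fosl2 and Jun it changed no other member's call. The difference between series had a count of 1 with DESeq2 and 1 without a filter (Fosl2). With S6K1 loss, Maff was -0.0202 with upper-quartile scaling, -0.00762 with the replicate block, -0.0164 over 6 and -0.0162 over 18 libraries, and with loss of both kinases Fosb was -0.000524 with upper-quartile scaling. In the S6K1 and S6K1/S6K2 series alone, the RAS rise in share was 28.9 and 24.9 points for Fosl1 and 17.6 and 8.975 points for Jun (exact permutation p = 0.1, the smallest possible). The Fosl1 share changed with loss by -0.139 points without division by length and by -2.03 points in the S6K1 series alone, and the Jun share by 0.157 points in the S6K1/S6K2 series alone.

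Leaving out libraries gave counts of 0 to 3 (WT RAS against WT EV) and 0 to 3 (KO RAS against WT EV) in the S6K1 series, 1 to 5 and 1 to 4 in the S6K1/S6K2 series, and 0 to 1 for the difference between series. In these 4 comparisons within series, the lowest counts came without all replicate 2 libraries. With RAS in the S6K1 series, Fos ranged from -1.81 to 1.59, Junb from -0.067 to 0.50, Jund from -0.21 to 0.016 and Atf3 from -0.62 to 1.05, and in the S6K1/S6K2 series Atf3 from -0.45 to 2.10. With S6K1 loss, Fos ranged from -1.31 to 1.076, Fosb from -0.23 to 0.34, Fosl1 from -0.17 to 0.30, Jun from -0.37 to 0.0066, Junb from -0.195 to 0.29, Jund from -0.059 to 0.21, Atf3 from -1.11 to 0.55 and Maff from -0.1965 to 0.17. With loss of both, Fosb ranged from -0.32 to 0.53, Fosl1 from -0.078 to 0.20, Fosl2 from -0.32 to 0.0078, Jun from -0.070 to 0.31, Junb from -0.041 to 0.22, Jund from -0.0016 to 0.23 and Atf3 from -0.98 to 0.52. The Fosl1 share ranged from -2.11 to 2.06 points with loss. The cause of these changes was not tested. With 3 lines per group, small changes of Fos and Atf3 could not be resolved.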
